A study of Mus musculus with 9 samples.

Results

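Rab GTPases are the small membrane-bound switches that give each compartment of the secretory and endocytic pathways its identity, and their transcripts were followed here in lung dendritic cells before and after culture outside the body. The members are the 59 genes whose symbol is Rab, a number and at most a letter and a second number, out of 45535 genes with a symbol. The samples came from lungs of C57/BL6j mice (spelled as labelled) 7 days into bleomycin treatment, an agent that injures the lung and leads to fibrosis. Lungs were digested with collagenase, and dendritic cells carrying CD103, the integrin alpha E subunit, were taken out with magnetic beads. For 5 samples RNA was taken at once (before culture). For the other 4 the cells were first kept for 18 h in serum-supplemented RPMI with penicillin and streptomycin (after culture). Both groups therefore share the bleomycin injury, the digestion and the bead selection, and no untreated lung was analysed here. The labels give neither the age or sex of the mice nor whether a sample is 1 mouse or a pool, so the p-values measure only the spread between these samples. The extraction label speaks of lung RNA, whereas the cell type label reads CD103+ dendritic cells.

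Rab proteins cycle between a GTP-bound form on a membrane and a GDP-bound form that is kept soluble in the cytosol. Exchange factors (GEFs) load GTP, GTPase-activating proteins (GAPs) end the signal, and effectors recruited by the GTP form tether, move or fuse vesicles. In dendritic cells the pathway is known for carrying antigen from endocytosis and phagocytosis to the loading of MHC molecules, for recycling MHC class I to and from phagosomes, and for secretion of cytokines. CD103+ lung dendritic cells belong to the conventional type 1 lineage, which is specialised in cross-presentation of engulfed antigen on MHC class I.

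Values are normalized read counts as deposited, and recovered whole reads assigned to named genes came to 14673818 to 35286110 per sample. The labelled cell type was checked with its markers. Itgae, which encodes CD103, averaged 18138 ± 1537 before and 1727 ± 335 after culture (mean ± SD, n = 5 before and n = 4 after, as throughout), and the type 1 dendritic cell gene Xcr1 averaged 5836 ± 781 before and 114 ± 32.5 after culture, both lower in the cultured samples. Of 12 fixed type 1 dendritic cell markers, 9 fell, 8 of them at least 2-fold, and 3 rose. Beside these and the marker counts that follow, 34.6% of all genes tested fell, 18.6% at least 2-fold, and 34.2% rose. The summed normalized count of the 12 markers was 158050 to 188660 before and 45637 to 48051 after culture. Markers of several other lung cell types were present at the start and lower after culture: the summed normalized count of 10 endothelial markers was 28495 to 41203 before and 3387 to 4500.4 after culture, that of 8 fibroblast markers 15897 to 28824 before and 2254 to 4484 after culture, that of 10 neutrophil markers 14385 to 25173 before and 936 to 1920.4 after culture, and that of 10 epithelial markers 25944 to 42888 before and 6294 to 10342 after culture. All 10 endothelial, all 8 fibroblast and all 8 tested neutrophil markers fell, as did 7 of 10 epithelial markers (1 rose), while the neutrophil marker Ly6g held at most 3 reads in each cultured sample. The 10 macrophage and monocyte markers summed to 36652 to 58641 before and 26841 to 49398 after culture, with 4 lower and 1 higher. Sums for 6 B cell markers (8036 to 11796 before and 5962 to 8329.9 after culture), 10 T and NK cell markers (5355 to 7065 before and 4332 to 5632 after culture) and 8 mast cell and basophil markers (10865 to 12251 before and 8821 to 10344 after culture) differed less. Single markers in these lists moved more than the sums. Of the T and NK cell markers 6 fell, 4 of them at least 2-fold, and 1 rose. Of 4 tested mast cell and basophil markers 2 fell, both at least 2-fold, and 1 rose. Of the B cell markers 2 fell and 1 rose. The shares called were 70% for T and NK cell, 75% for tested mast cell and basophil and 50% for B cell markers, beside 68.8% of all genes. Only the sum of the 6 platelet and megakaryocyte markers was higher after culture, at 313 to 396 before and 736 to 1475 after culture. Of 5 tested platelet and megakaryocyte markers 2 rose and 3 fell, 2 of each at least 2-fold. In such bulk samples, fewer cells of a type and less RNA per cell cannot be told apart, and the part of these cells in the Rab results was not tested unless a value is given.

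Most Rab genes moved between the groups, in both directions. Of the 59 members, 52 had a mean of at least 10 normalized counts and were tested with limma on log2(normalized count + 1), with adjustment over all 18202 genes tested. At an adjusted p under 0.05, 22 members rose, 16 fell and 14 were not called (73.1% called). Among all genes tested 68.8% were called, 34.2% higher and 34.6% lower, so the share of Rab genes called lies near that of the transcriptome. At least 2-fold changes were found for 4 members upward and 7 downward, beside 14.1% and 18.6% of all genes. The values of the groups did not overlap for 32 members, beside 57.3% of all genes. The median log2 fold change was 0.10 over the Rab genes and 0.01 over all genes, with a range from -2.46 (Rab44) to 2.47 (Rab39b).

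**Figure D1:**
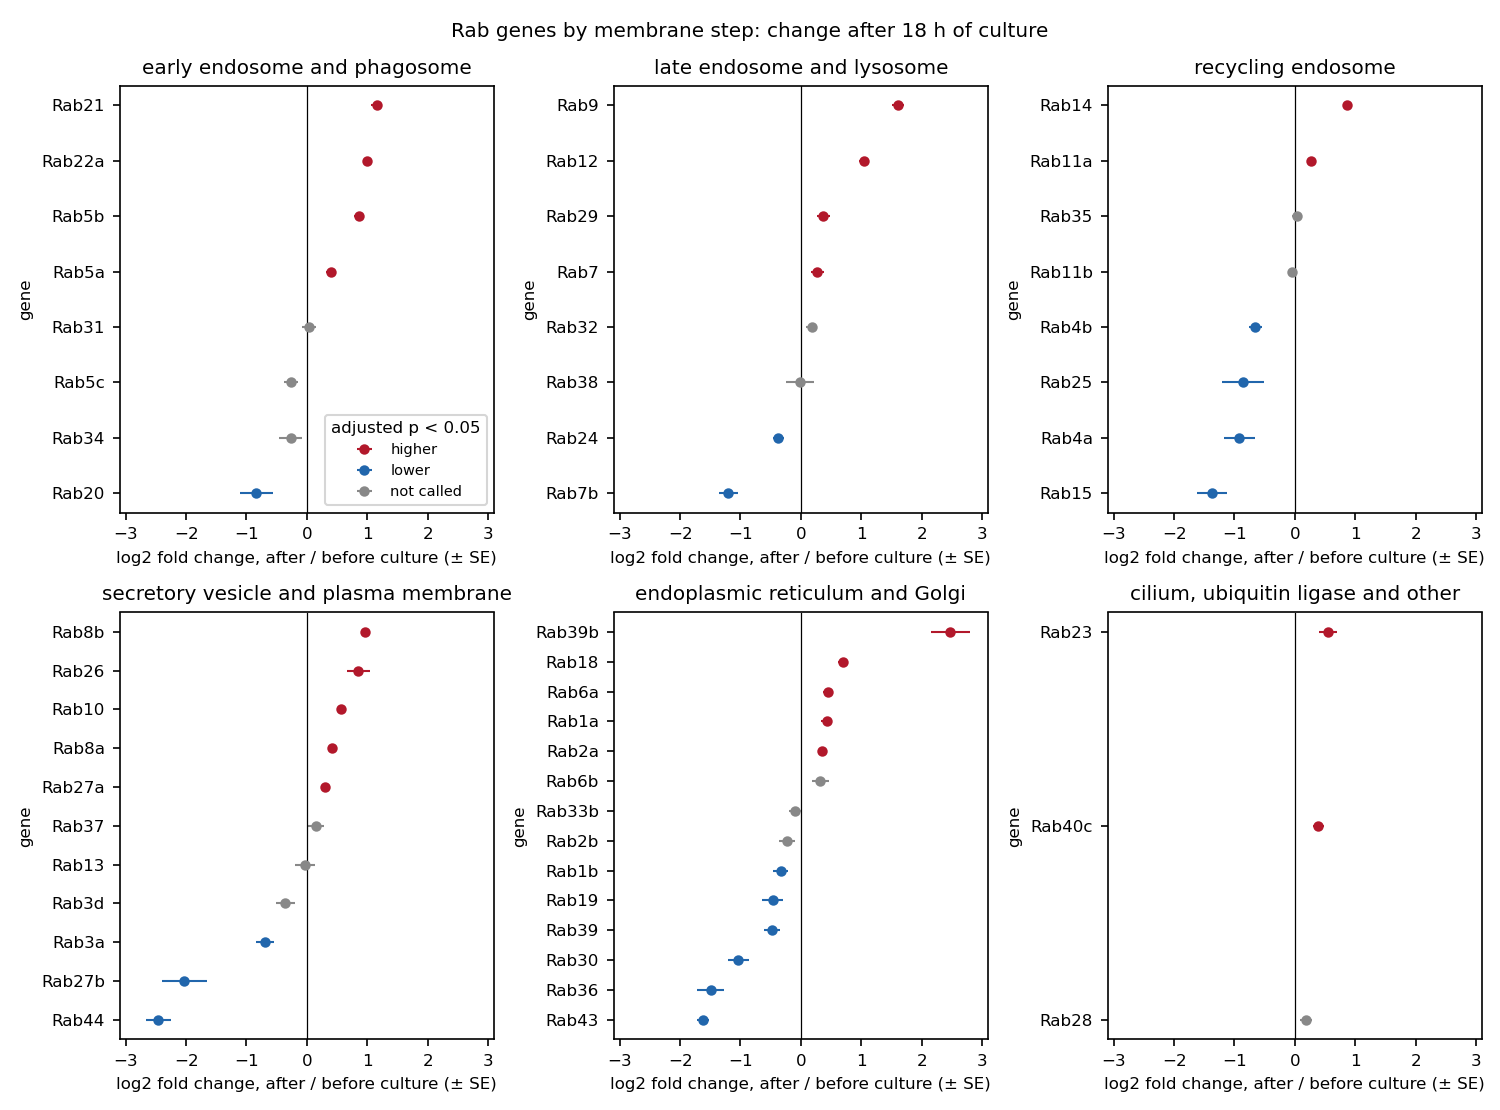
Log2 fold change (after minus before culture, x axis, no unit) of each of the 52 tested Rab genes, 1 per line and grouped by the transport step it serves. Points are limma estimates and bars their SE. Every step except the cilium, ubiquitin ligase and other group holds genes on both sides of 0, from Rab44 at -2.46 to Rab39b at 2.47.

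The summed level of the family was a larger share of the transcriptome after culture. All Rab genes together took 0.334% ± 0.0071 (SD, n = 5) of the named signal before and 0.436% ± 0.0131 (SD, n = 4) after culture, and the ranges of 0.325% to 0.342% and 0.421% to 0.451% did not overlap. Their summed normalized count was 86351 ± 3079 before and 110659 ± 8715 after culture, of which Rab8b alone held 10029 ± 240 and 19544 ± 1352. After a correction for GC content and transcript length, the median log2 fold change was 0.030 over the Rab genes and 0.017 over all genes. To compare genes of unequal length, normalized counts were divided by the length of the longest annotated transcript. Per kilobase, Rab7 was the most abundant member in both groups, at 4275 before and 5221 after culture. Before culture it was followed by Rab5c (2890), Rab1b (2155) and Rab8b (2119). After culture Rab8b came second (4129), ahead of Rab5c (2414), Rab1a (2221) and Rab10 (1894). Rab7b moved from rank 8 to rank 21, whereas Rab9 moved from rank 25 to rank 15. The ranking depended on the length used: per kilobase of the mean annotated transcript, Rab7 was again first in both groups, but Rab8b ranked 8 before and 3 after culture, and Rab14 was second after culture. By step, the summed level per kilobase of Rab genes of secretory vesicles and the plasma membrane was 1.53-fold higher after culture (5144 ± 155 and 7850 ± 474). Their share of all Rab signal per kilobase went from 17.9% ± 0.505 to 22.3% ± 1.35, with no overlap between groups. Most of that difference lay in Rab8b alone: without it, a check added after seeing the data, the sum was 1.23-fold higher (3025 ± 141 and 3721 ± 213). The share of these other genes in all Rab signal was 10.49% before and 10.58% after culture. Rab8b was still counted in that total, so its own rise lowers the share after culture. The sum over genes of the endoplasmic reticulum and Golgi was 1.08-fold of its starting level with overlapping groups, and its share went from 21.3% ± 0.233 to 18.8% ± 0.449 without overlap. Early endosome, late endosome and recycling genes summed to 1.14-fold, 1.20-fold and 1.21-fold of their levels before culture, and the groups overlapped for the early and late endosome sums. Step results also depended on the length used. By mean annotated transcript, the secretory sum was 1.42-fold, early endosome 1.13-fold, late endosome 1.12-fold, recycling 1.29-fold and endoplasmic reticulum and Golgi 1.05-fold. The recycling share then went from 18.5% to 20.2%, but from 13.0% to 12.9% by the longest transcript. No test was made of these sums.

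The promoters of the member with the most significant rise, Rab9, and the most significant fall, Rab43, are shown for context. RefSeq promoters on GRCm38.p6 matched 48 of the 59 members. Both sequences are the 250 bases before the annotated start, 5′ to 3′ on the gene's strand, with capitals for the GC box GGGCGG (either strand). Rab9 lies on the minus strand with its promoter at chrX:166479868-166480117, and that of Rab43 is at chr6:87812165-87812414, also on the minus strand.
Rab9: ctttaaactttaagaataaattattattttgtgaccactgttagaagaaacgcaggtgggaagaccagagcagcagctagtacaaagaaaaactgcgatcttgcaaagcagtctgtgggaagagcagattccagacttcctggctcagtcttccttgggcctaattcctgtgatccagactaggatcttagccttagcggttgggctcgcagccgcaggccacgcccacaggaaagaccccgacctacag
Rab43: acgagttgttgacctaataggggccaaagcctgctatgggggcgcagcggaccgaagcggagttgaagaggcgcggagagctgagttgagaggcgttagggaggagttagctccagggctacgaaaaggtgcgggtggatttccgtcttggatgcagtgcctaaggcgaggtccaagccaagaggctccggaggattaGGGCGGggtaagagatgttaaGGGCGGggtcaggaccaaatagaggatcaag
The Rab43 window holds a pair of GC boxes, and that of Rab9 holds no match to any of the 4 motifs searched. GC boxes occurred in 13 of 19 promoters of genes that rose, 7 of 10 of genes that fell and 8 of 12 of genes not called, beside 33.0% of all 27025 promoters. The median GC content was 60.6% in the 48 matched Rab promoters and 52% in all promoters, and its part in these counts was not tested. The E-box CACGTG was found in 3 promoters of genes that rose (Rab5a, Rab21 and Rab23) and in 1 of those that fell (Rab20), beside 6.04% of all. The AP-1 motif TGANTCA (6.85% of all) and the kappa B motif (3.74%) matched no promoter of a Rab gene that rose or fell. The motifs were searched on both strands, and a match or its absence describes these letters only.

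Among the 8 genes of early endosomes and phagosomes, 4 rose, 1 fell and 3 were not called. Rab21, which serves integrin endocytosis, and Rab22a, which sorts cargo such as MHC class I between early and recycling endosomes, rose about 2-fold. Normalized counts of Rab21 were 2043, 1917, 2337, 1778 and 2080 before (replicates 1 to 5) and 4325, 4136, 4690.4 and 4897 after culture (replicates 1 to 4). All 4 cultured samples lay above all 5 starting samples, and the mean rose 2.22-fold (log2 fold change 1.15, SE 0.0863, adjusted p = 5.92e-08). Normalized counts of Rab22a were 1177, 1187, 1244, 1109.8 and 1156 before and 2336, 2281, 2255 and 2526 after culture, a 2.00-fold rise with a wide gap between the groups (log2 fold change 1.00, SE 0.0675, adjusted p = 2.15e-08).

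The Rab5 isoforms, which drive fusion of early endosomes, gave different results. Rab5b had normalized counts of 2442, 2393, 2304, 2380.4 and 2180.2 before and 3999.6, 4655, 3794 and 4589 after culture, so that the mean rose 1.82-fold without overlap (log2 fold change 0.86, SE 0.0774, adjusted p = 3.90e-07). Rab5a also rose, from 1212, 1215, 1363, 1469.8 and 1285 to 1569, 1743, 1744 and 1847, a smaller 1.32-fold change (log2 fold change 0.40, SE 0.0804, adjusted p = 5.96e-04). Rab5c, the most abundant of the family, had normalized counts of 5914, 6022, 6137, 4316 and 6038 before and 4816, 5489, 3775 and 4909.6 after culture. Its groups overlapped through the low replicate 4 of the starting samples, and Rab5c was not called (log2 fold change -0.26, SE 0.122, adjusted p = 0.0732). Rab5c was called lower in the fit without before culture replicate 4 (adjusted p = 0.00554) or after culture replicate 2 (adjusted p = 0.0303), and each of those fits raised the count of early endosome genes that fell from 1 to 2.

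Rab20, which acts in phagosome maturation, was the early endosome gene that fell, with normalized counts of 392, 559, 615, 282 and 592 before and 293, 429, 169 and 222 after culture (log2 fold change -0.83, SE 0.268, adjusted p = 0.0136). The groups overlapped. The neutrophil markers summed to 15114, 18177, 25173, 14385 and 23979 in the same starting samples and to 1424, 1920.4, 936 and 1382 in the same cultured samples, and within each group the samples stood in the same order as for Rab20. That order was noticed after the values were seen, and in the starting group it held for Rab5c as well. The part of neutrophils in the Rab20 result was not tested. The antisense gene E230013L22Rik, which overlaps Rab20, fell from 190.3 ± 36.1 to 60.9 ± 18.7, and whether reads were counted by strand is not given in the sources used here. Rab31, which works between the trans-Golgi network and endosomes, was near level (log2 fold change 0.03, adjusted p = 0.82). Rab34, a Rab of macropinosomes and phagosomes, was low, with 92.4, 82.9, 81.9, 72.8 and 96.7 before and 66.2, 97.8, 70.1 and 54.0 after culture, and was not called (log2 fold change -0.27, adjusted p = 0.218).

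Of the 9 late endosome and lysosome genes, 8 were tested, of which 4 rose, 2 fell and 2 were not called. The rise of Rab9, which returns mannose 6-phosphate receptors from late endosomes to the Golgi, was the most significant of all members. Normalized counts of Rab9 were 374, 407, 416, 445 and 401 before and 1146, 1105, 1316 and 1439 after culture, a 3.06-fold rise (log2 fold change 1.61, SE 0.0948, adjusted p = 5.69e-09). The lowest cultured sample held more than the highest starting sample. Rab12, which directs transferrin receptor from recycling endosomes to degradation, had counts of 808, 871, 829, 897 and 793 before and 1749.8, 1713, 1729 and 1705 after culture, a 2.05-fold rise with the cultured samples close together (log2 fold change 1.04, SE 0.0677, adjusted p = 1.52e-08). Rab29, a partner of the kinase Lrrk2 at the Golgi and lysosomes, rose from 248 ± 16.3 to 322 ± 33.1 (log2 fold change 0.37, adjusted p = 0.00674).

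The paralogs Rab7 and Rab7b gave different results, and the difference between them was not tested. Rab7, the main Rab of late endosomes and of fusion with lysosomes, had normalized counts of 9017, 9227, 10070.2, 8213 and 9625 before and 10752, 13175, 8855 and 12304 after culture. Replicate 3 of the cultured samples fell inside the starting range, and the call rested on a narrow margin (log2 fold change 0.28, SE 0.109, adjusted p = 0.0371). It was lost in the fit without before culture replicate 1 (adjusted p = 0.0683), before culture replicate 2 (adjusted p = 0.0624), before culture replicate 4 (adjusted p = 0.0711), after culture replicate 1 (adjusted p = 0.0563), after culture replicate 2 (adjusted p = 0.119) or after culture replicate 4 (adjusted p = 0.112). Rab7b, which works between late endosomes and the trans-Golgi network and is known to dampen Toll-like receptor signals, had counts of 4622, 4579.9, 4564, 5271 and 4624 before and 2093, 2840, 1346 and 2207 after culture. No cultured sample reached the starting range, and the mean was 2.23-fold lower (log2 fold change -1.20, SE 0.158, adjusted p = 1.45e-05). In the starting group 4 samples lay between 4564 and 4624 and replicate 4 stood above them.

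Rab24, linked to autophagy, fell from 619 ± 54.5 to 477 ± 20.4 (log2 fold change -0.37, adjusted p = 0.00195), but 48.9% of its 50-base windows also occur in transcripts of another gene, mainly Prelid1, so its reads are uncertain. Rab32 and Rab38 serve lysosome-related organelles, and Rab32 also acts on phagosomes. Rab32 had counts of 2755, 2735, 2493, 2153 and 2243 before and 2625, 3102, 2498 and 2978 after culture, with overlapping groups and no call (log2 fold change 0.18, adjusted p = 0.11), though it was called higher in the fit without after culture replicate 3 (adjusted p = 0.0498). Rab38 was near level (log2 fold change -0.01, adjusted p = 0.965), and Rab9b had no reads in any sample.

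**Figure D2:**
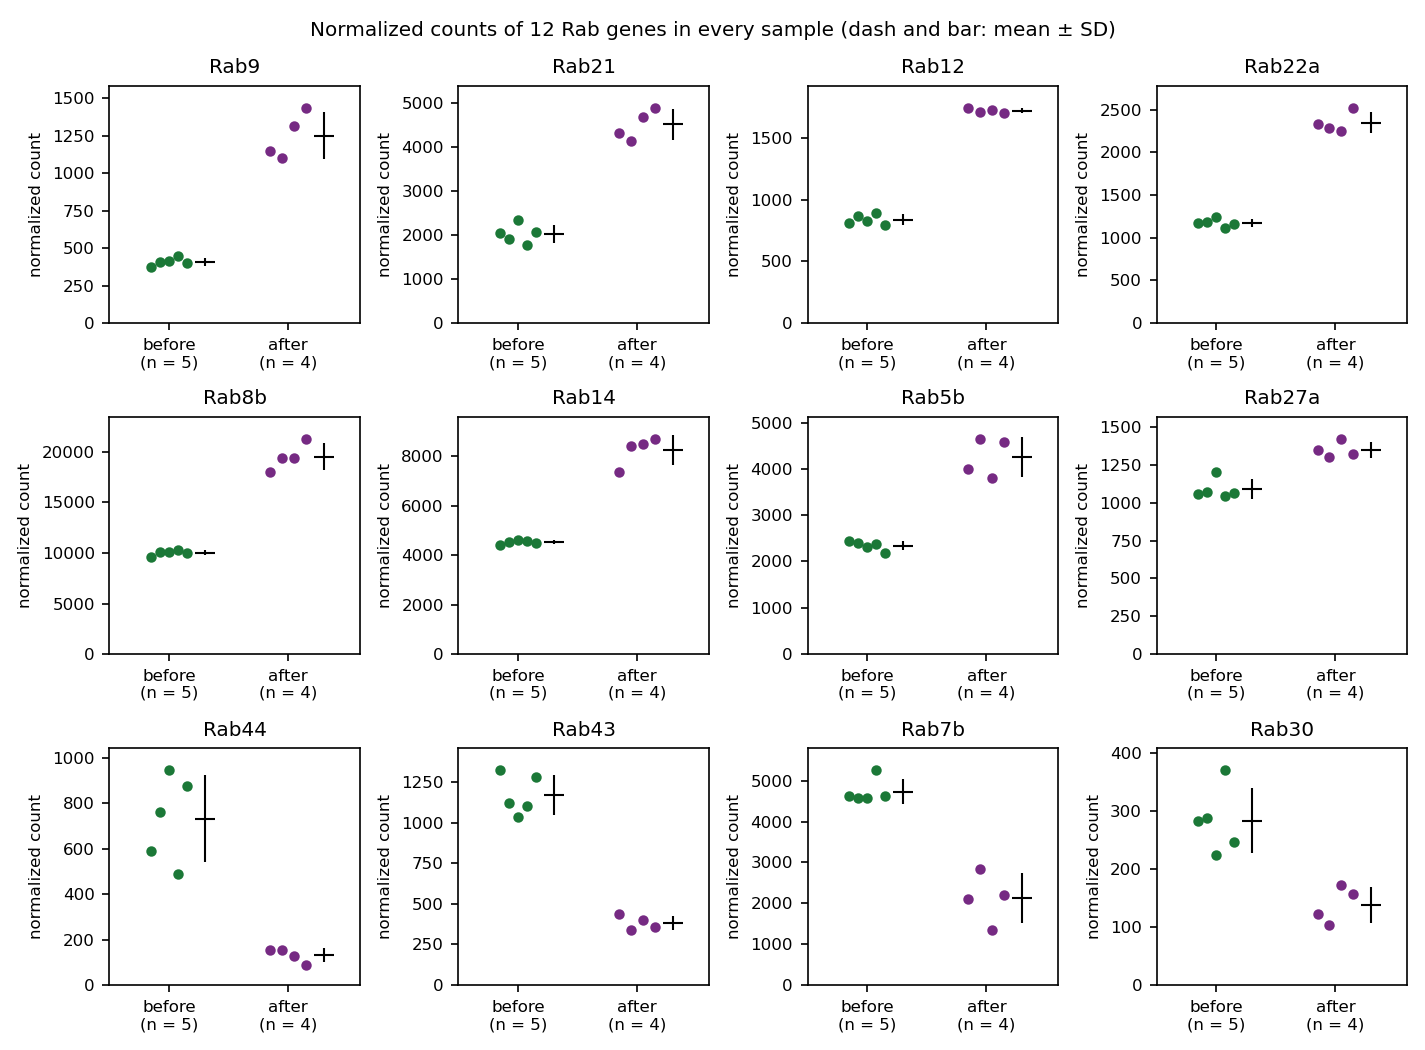
Normalized count (y axis, linear, from 0) in each sample before and after culture, 1 panel per gene for a choice of Rab genes. Points are samples, dashes group means and bars their SD. Rab9, Rab21 and Rab8b separate upward and Rab7b, Rab43 and Rab44 downward without overlap.

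Of the 9 recycling genes 8 were tested, of which 2 rose, 4 fell and 2 were not called, with a median log2 fold change of -0.35. With a minimum mean of 50 normalized counts 2 of them were called lower. Rab14, which links the trans-Golgi network and early endosomes and acts in MHC class I traffic, rose. Normalized counts of Rab14 were 4399.9, 4517, 4624, 4564 and 4482 before and 7376, 8423, 8498 and 8709 after culture, a 1.83-fold rise without overlap (log2 fold change 0.87, SE 0.0679, adjusted p = 9.47e-08). Rab11a, the Rab of the slow recycling compartment that stores MHC class I in dendritic cells, had counts of 2006, 2139.6, 2191, 2216 and 2005 before and 2399.9, 2708, 2337 and 2759.7 after culture (log2 fold change 0.27, SE 0.0740, adjusted p = 0.0053). All its cultured samples were above the starting samples, yet after correction for GC content and length the direction turned (log2 fold change -0.33, adjusted p = 0.00387). Its close relative Rab11b averaged 4053 ± 107 before and 3939 ± 286 after culture and was not called (log2 fold change -0.04, adjusted p = 0.587).

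The fast recycling genes Rab4a and Rab4b fell. Rab4a averaged 95.8 ± 10.6 before and 53.6 ± 21.7 after culture (log2 fold change -0.92, adjusted p = 0.00626). Rab4b averaged 332 ± 29.9 before and 209.9 ± 5.94 after culture (log2 fold change -0.65, adjusted p = 6.98e-05). Yet 93.0% of its 50-base windows are shared with transcripts of other genes, most often the read-through gene Gm21983, which was listed at 0 in all samples. Rab15, another endosomal sorting Rab, averaged 44.1 ± 11.7 before and 15.9 ± 1.37 after culture (log2 fold change -1.37, adjusted p = 2.67e-04). Rab25, a relative of Rab11 best known from epithelium, averaged 23.6 ± 7.73 before and 12.3 ± 4.21 after culture with overlapping groups (log2 fold change -0.86, adjusted p = 0.0415), and its call was lost in the fit without before culture replicate 1 (adjusted p = 0.0829), before culture replicate 2 (adjusted p = 0.0936), before culture replicate 3 (adjusted p = 0.0915), before culture replicate 4 (adjusted p = 0.0614), after culture replicate 1 (adjusted p = 0.0867), after culture replicate 2 (adjusted p = 0.0638) or after culture replicate 4 (adjusted p = 0.117). Rab35, which drives fast recycling at the plasma membrane, had counts of 2418, 2658, 2865, 2394 and 2692 before and 2704, 3008, 2254 and 2754 after culture and was not called (log2 fold change 0.04, adjusted p = 0.736). Rab17, an epithelial Rab, held at most 3 reads in any sample.

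The 11 tested genes of secretory vesicles and the plasma membrane split into 5 higher, 3 lower and 3 not called. Rab8b, which carries post-Golgi vesicles to the cell surface together with Rab8a, had normalized counts of 9625, 10145, 10106, 10248 and 10020.4 before and 18042, 19397, 19408 and 21330 after culture, a 1.95-fold rise (log2 fold change 0.96, SE 0.0709, adjusted p = 5.22e-08). Its starting samples spread little, and the nearest samples of the groups were 10248 and 18042. Rab8a averaged 2856 ± 156 before and 3807 ± 55.6 after culture (log2 fold change 0.42, adjusted p = 6.66e-05). Rab10, which brings receptors such as Toll-like receptor 4 to the surface, averaged 4472 ± 247 before and 6654 ± 650 after culture (log2 fold change 0.57, adjusted p = 2.22e-05), while its antisense gene Rab10os fell from 1280 ± 98.5 to 644 ± 34.2. Rab26, a Rab of secretory granules, averaged 70.8 ± 16.9 before and 126 ± 13.3 after culture (log2 fold change 0.85, adjusted p = 0.00141).

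The Rabs of regulated secretion were mixed. Rab27a docks secretory granules and brings the NADPH oxidase to phagosomes of dendritic cells, and its normalized counts were 1061, 1074, 1205, 1048 and 1067 before and 1351, 1302, 1426 and 1324 after culture. The groups did not overlap and the mean rose 1.24-fold (log2 fold change 0.31, SE 0.0709, adjusted p = 0.00161). Rab27b was scarce, with 62.8, 58.2, 30.3, 98.8 and 50.1 before and 7.95, 8.34, 20.9 and 19.8 after culture, 4.21-fold lower (log2 fold change -2.03, SE 0.373, adjusted p = 2.89e-04). Rab44, a large atypical Rab with EF-hand domains known from granulocytes and mast cells, had the steepest fall, with counts of 588, 761, 948, 487 and 874 before and 154, 154, 127 and 89.7 after culture. The mean was 5.58-fold lower (log2 fold change -2.46, SE 0.205, adjusted p = 1.82e-07), and the highest cultured sample was below the lowest starting sample. Within the starting group, the samples stood in the same order for Rab44 as for the summed neutrophil markers. That match was noticed after the values were seen, and it held there for Rab5c, which was not called, as well. Within the cultured group the order for Rab44 differed from that of the markers, and the part of neutrophils in the Rab44 result was not tested. Of the Rab3 genes of regulated exocytosis, Rab3a fell from 168 ± 32.0 to 102 ± 5.77 (log2 fold change -0.69, adjusted p = 0.00123). Rab3d averaged 1108 ± 167 before and 874 ± 199 after culture and was just short of the threshold (log2 fold change -0.36, adjusted p = 0.051), and it was called lower in the fit without before culture replicate 4 (adjusted p = 0.00938) or after culture replicate 2 (adjusted p = 0.00926). With all samples it was also called lower by edgeR (adjusted p = 0.0465), DESeq2 (adjusted p = 0.045), 3 other scalings and a pseudocount of 8, but not after the GC and length correction (log2 fold change -0.08, adjusted p = 0.604). Rab3b and Rab3c, both known from MHC class I recycling in dendritic cells, held at most 19 reads in any sample. Rab13 and Rab37 were not called (log2 fold changes -0.03 and 0.15).

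Among the 14 tested genes of the endoplasmic reticulum and Golgi, 5 rose, 6 fell and 3 were not called. Rab43, a Golgi Rab that type 1 dendritic cells need for cross-presentation, had normalized counts of 1326, 1117, 1037, 1099 and 1278 before and 435, 337, 399 and 356 after culture. The mean was 3.07-fold lower and the groups did not overlap (log2 fold change -1.62, SE 0.102, adjusted p = 1.14e-08). Because 90.4% of its 50-base windows occur also in transcripts of other genes, most often the overlapping gene Gm45140, reads of the 2 genes may be split. Gm45140 fell too, from 108 ± 22.7 to 60.3 ± 5.47. Rab30, a Golgi Rab, had counts of 284, 288, 224, 372 and 247 before and 122, 103, 172 and 157 after culture, 2.05-fold lower (log2 fold change -1.03, SE 0.177, adjusted p = 1.55e-04). Rab36 averaged 62.9 ± 11.2 before and 21.9 ± 5.28 after culture (log2 fold change -1.49, adjusted p = 5.23e-05).

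The Rab39 paralogs differed in direction. Rab39, which acts on phagosomes in cross-presentation, had normalized counts of 104, 114, 127, 121 and 109 before and 80.4, 84.2, 90.1 and 74.5 after culture, lower in all 4 cultured samples (log2 fold change -0.48, SE 0.137, adjusted p = 0.00734). The call was lost with quantile normalization (adjusted p = 0.0732). Rab39b, a neuronal and Golgi Rab linked to autophagy, was barely present at the start, with 4.76, 7.42, 11.2, 14.2 and 8.95, and reached 36.2, 53.1, 70.1 and 60.1 after culture. That 5.89-fold rise was the largest of the family (log2 fold change 2.47, SE 0.324, adjusted p = 1.48e-05). The antisense gene Gm15063 over Rab39b held at most 2 reads in any sample. The difference between the paralogs was not tested.

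Of the Rabs of transport between the endoplasmic reticulum and Golgi, Rab1a rose from 4642 ± 285 to 6279.8 ± 914 (log2 fold change 0.43, adjusted p = 0.00122), while Rab1b had overlapping groups with means of 4122 ± 593 and 3267 ± 528 (log2 fold change -0.34, adjusted p = 0.0314). The Rab1b call was lost in the fit without before culture replicate 1 (adjusted p = 0.0656), before culture replicate 2 (adjusted p = 0.0655), before culture replicate 3 (adjusted p = 0.0746), before culture replicate 5 (adjusted p = 0.0575), after culture replicate 1 (adjusted p = 0.059) or after culture replicate 3 (adjusted p = 0.103). Rab2a rose from 1757 ± 94.6 to 2229.6 ± 87.9 (log2 fold change 0.34, adjusted p = 4.79e-04), and Rab2b was not called (log2 fold change -0.23, adjusted p = 0.128), with 68.3% of its 50-base windows shared with other genes. Rab6a, the main Rab of retrograde Golgi transport, rose from 2140 ± 116 to 2947 ± 323 (log2 fold change 0.46, adjusted p = 2.34e-04). Rab6b was not called (log2 fold change 0.32, adjusted p = 0.0589), though it was called higher in the fit without before culture replicate 2 (adjusted p = 0.027), before culture replicate 3 (adjusted p = 0.0457) or after culture replicate 3 (adjusted p = 0.0281). Rab18, which sits on lipid droplets and the endoplasmic reticulum, rose from 1059 ± 68.7 to 1714 ± 97.4 (log2 fold change 0.69, adjusted p = 2.30e-06). Rab19 had overlapping groups with means of 154 ± 31.6 and 109.8 ± 15.9 (log2 fold change -0.47, adjusted p = 0.0255), and its call was lost with quantile normalization (adjusted p = 0.146) and in the fit without before culture replicate 2 (adjusted p = 0.0691), after culture replicate 1 (adjusted p = 0.052) or after culture replicate 4 (adjusted p = 0.086). Rab33b was not called (log2 fold change -0.09) and Rab33a stayed under the mean of 10.

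In the last group, Rab23, a regulator of Hedgehog signalling at the cilium, rose from 144 ± 12.2 to 215 ± 42.8 with overlapping groups (log2 fold change 0.55, adjusted p = 0.00433). Rab40c, which carries a SOCS box and recruits a ubiquitin ligase, rose from 465 ± 30.0 to 609.9 ± 43.0 (log2 fold change 0.39, adjusted p = 0.00124). Rab28 was not called (log2 fold change 0.18, adjusted p = 0.129). Rab40b, with 8.95 to 21.0 before and 0.758 to 4.55 after culture, and Rab42, with 7.53 to 16.1 and 3.03 to 7.07, were too low to be tested.

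Paralogs that share a Rab number and a step were set against each other as shares of their family's signal per kilobase of the longest transcript. Rab7 made up 80.2% ± 2.19 before and 91.8% ± 1.09 after culture of the Rab7 pair, with no overlap. Rab1a held 43.5% ± 4.55 before and 56.6% ± 2.06 after culture of the Rab1 pair, also without overlap. That difference was not seen in the values corrected for GC content and length, where Rab1a had a log2 fold change of -0.01 and Rab1b of 0.14. In the Rab5 family, Rab5c held 71.4% ± 3.86 before and 56.1% ± 2.77 after culture. Rab5b took the larger part of that difference, with 18.4% ± 2.18 before and 31.3% ± 1.24 after culture. Rab8b held 77.2% ± 1.06 before and 83.1% ± 0.783 after culture of the Rab8 pair and Rab11a 57.7% ± 1.32 before and 62.9% ± 0.661 after culture of the Rab11 pair, and neither pair of ranges overlapped. In the corrected values the Rab11 difference turned (log2 fold changes -0.33 for Rab11a and -0.01 for Rab11b), and Rab8a and Rab8b were close (0.49 and 0.53). Rab39b held 6.49% ± 2.05 before and 36.4% ± 6.0 after culture of the Rab39 pair. The shares of the Rab3, Rab4 and Rab6 members overlapped between the groups. The size of a share depended on the length used. In a pair whose shares do not overlap between groups, the direction cannot depend on it, since each gene is divided by a fixed length. In the Rab5 family of 3 the direction was the same with both lengths. Per kilobase of the mean annotated transcript, Rab8b held 57.3% before and 66.1% after culture, and Rab7 67.9% before and 85.5% after culture. These shares are descriptions without a test.

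**Figure D3:**
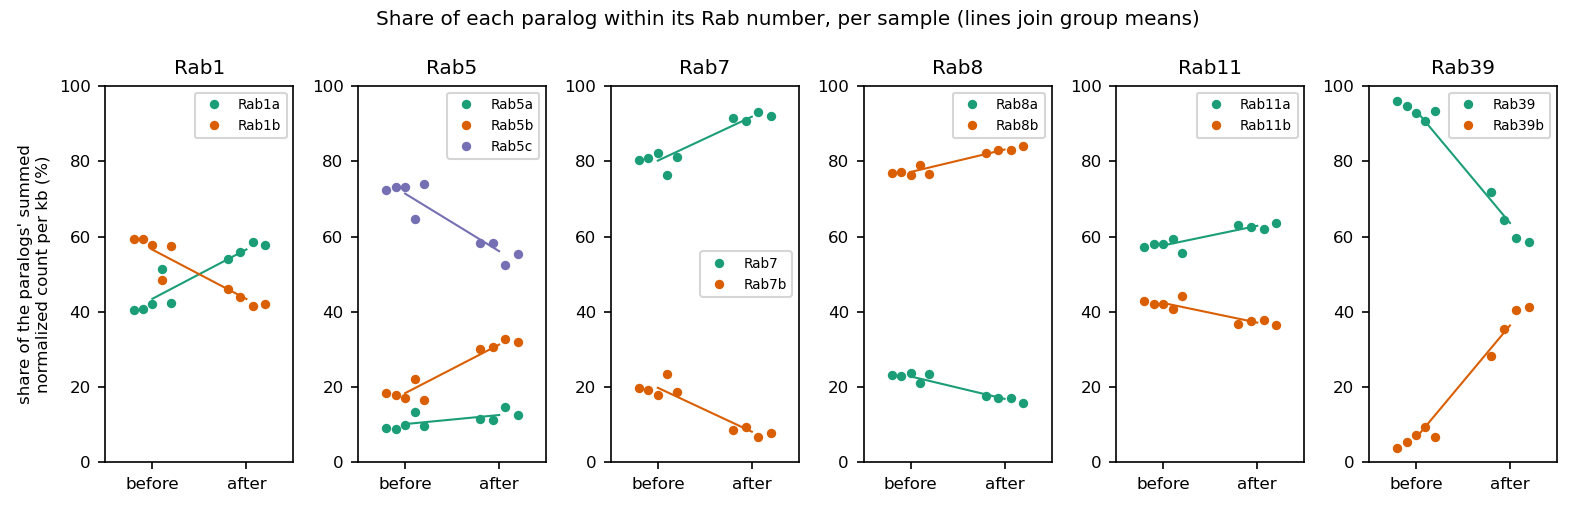
Share (percent, y axis from 0) of a Rab family's signal per kilobase of the longest transcript held by each paralog before and after culture. The Rab1, Rab5, Rab7, Rab8, Rab11 and Rab39 families are shown. Points are samples and lines join group means. Rab7 goes from 80.2% to 91.8%, Rab1a from 43.5% to 56.6% and Rab39b from 6.49% to 36.4%. Values are not corrected for GC content, and with that correction the Rab1a difference is not seen and the Rab11a difference turns.

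GC content moved with the direction of change. The median GC content of the transcripts was 46.1% for the 22 Rab genes that rose, 49.6% for the 14 not called and 55.2% for the 16 that fell. Over all genes tested the medians were 46.3%, 49.6% and 52.2% in the same order. When each sample's values were corrected for GC content and transcript length, 18 of the 22 rises and 11 of the 16 falls were still called in the same direction. Rab11a turned, as given above, and 8 calls were lost: the rises of Rab1a (corrected log2 fold change -0.01), Rab2a (0.02) and Rab7 (0.20), and the falls of Rab1b (0.14), Rab19 (-0.38), Rab20 (-0.49), Rab24 (-0.05) and Rab25 (-0.55). A further 6 genes were newly called: Rab6b (0.53), Rab35 (0.32) and Rab37 (0.34) higher, and Rab28 (-0.53), Rab2b (-0.47) and Rab33b (-0.27) lower. Calls that held with smaller values included Rab8b (corrected log2 fold change 0.53), Rab14 (0.58), Rab5a (0.26), Rab27a (0.18), Rab10 (0.32), Rab18 (0.25), Rab6a (0.19), Rab3a (-0.40) and Rab4b (-0.22). Rab9 (1.35), Rab12 (0.97), Rab22a (1.02), Rab5b (0.86), Rab7b (-1.15), Rab43 (-1.15) and Rab44 (-1.99) stayed at 0.86 or more in size, with Rab21 at 0.84. Calls with larger values included Rab39 (-0.95), Rab40c (0.71), Rab30 (-1.51), Rab27b (-2.56), Rab26 (1.18), Rab8a (0.49) and Rab29 (0.42). The part of GC content in these results was not tested beyond this correction.

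**Figure D4:**
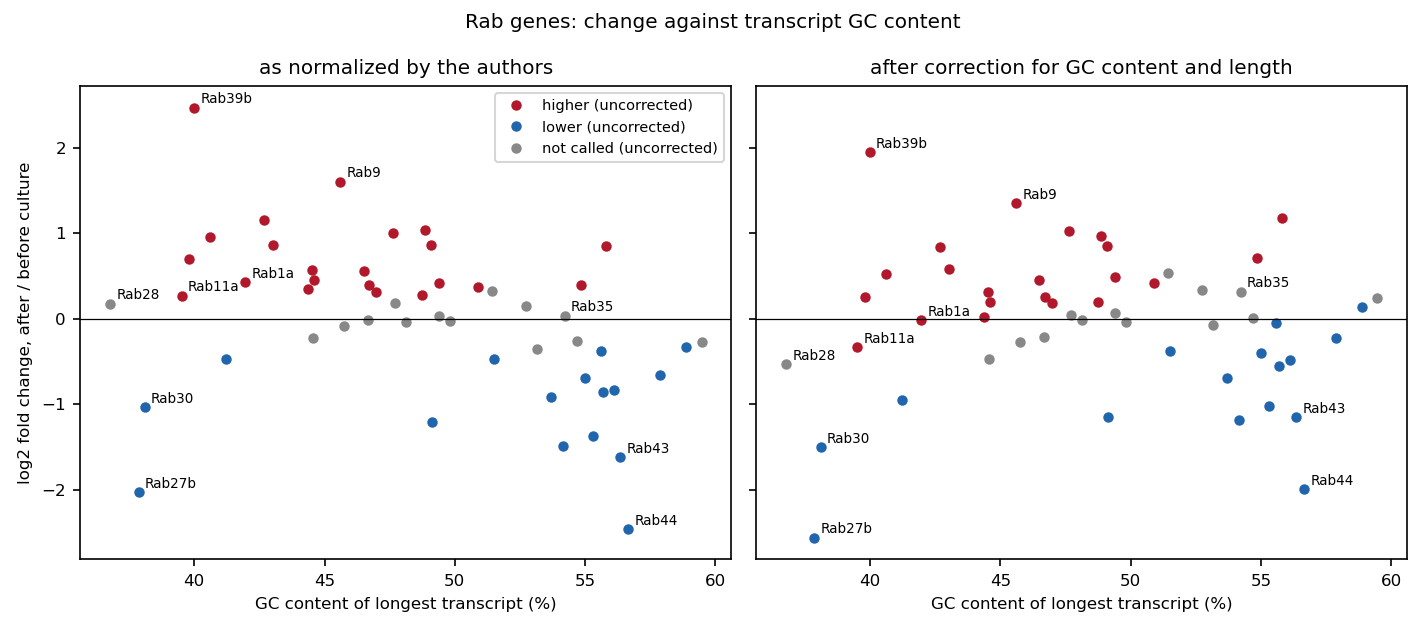
Log2 fold change (y axis) of the 52 tested Rab genes against GC content of the longest transcript in percent (x axis), coloured by call. Genes that rose lie mostly at lower GC content (median 46.1%) than genes that fell (median 55.2%).

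The genes that control the Rab cycle were read from fixed lists of 130 genes, of which 125 were tested: 49 rose, 37 fell and 39 were not called. The share called, 68.8%, was that of all genes tested (68.8%), and the median log2 fold change was 0.11. Of 31 tested GAPs, 14 rose and 7 fell. Tbc1d17, a GAP known to act on Rab8, averaged 1529 ± 139.7 before and 9118 ± 2116 after culture (log2 fold change 2.55, SE 0.137, adjusted p = 2.29e-09), and Tbc1d4, the GAP of Rab10 and Rab8 also called AS160, averaged 6347 ± 982 before and 29394 ± 1984 after culture (log2 fold change 2.22, SE 0.103, adjusted p = 5.54e-10). Rabgap1l, another GAP, rose from 2145 ± 353 to 7268 ± 1274 (log2 fold change 1.76, adjusted p = 4.47e-08). Tbc1d16 fell from 959 ± 90.7 to 273 ± 45.7 (log2 fold change -1.82, adjusted p = 1.78e-08) and Tbc1d9 from 8628 ± 756 to 4048 ± 359 (log2 fold change -1.09, adjusted p = 8.11e-08). After correction for GC content and length 2 GAPs were lower, and the fall of Evi5l was not called (from log2 fold change -0.67 to -0.12).

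Of 37 GEFs, 12 rose and 15 fell, and 7 were lower after the GC and length correction. Ric1, which with Rgp1 activates Rab6, averaged 3436 ± 111 before and 12384 ± 714 after culture (log2 fold change 1.85, SE 0.0659, adjusted p = 4.70e-11). Sbf2 rose from 1716 ± 138 to 3561 ± 254 (log2 fold change 1.05, adjusted p = 5.86e-08) and Dennd6a, a GEF of Rab14, from 939 ± 104 to 1921 ± 135 (log2 fold change 1.04, adjusted p = 3.46e-07). Rin3, a GEF of the Rab5 family, averaged 12964 ± 1244 before and 3825 ± 406 after culture (log2 fold change -1.76, SE 0.0933, adjusted p = 1.99e-09). Dennd2b fell from 971 ± 205 to 276 ± 26.1 (log2 fold change -1.79, adjusted p = 9.91e-08), and Hps4, part of the GEF of Rab32 and Rab38, from 2383 ± 289.8 to 899.6 ± 36.0 (log2 fold change -1.40, adjusted p = 1.40e-08). Rab3gap1 and Rab3gap2, counted here, form a complex known both as GAP of Rab3 and GEF of Rab18.

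Of 23 tested endosomal effectors 12 rose and 4 fell, beside 34.2% and 34.6% of all genes, with a median log2 fold change of 0.29. Vps39, a subunit of the HOPS tether that Rab7 recruits, rose from 1456 ± 67.5 to 3258 ± 186 (log2 fold change 1.16, adjusted p = 5.48e-09). The Rab5 effectors Eea1 and Appl1 rose as well, Eea1 from 1570.3 ± 70.0 to 2754 ± 284 (log2 fold change 0.81, adjusted p = 8.93e-07) and Appl1 from 2007 ± 230.2 to 3378 ± 291 (log2 fold change 0.75, adjusted p = 6.20e-06). The Rab11 effectors Rab11fip4 and Rab11fip1 fell, from 1545 ± 132 to 458 ± 51.4 (log2 fold change -1.76, adjusted p = 2.44e-09) and from 13409 ± 1091 to 6747 ± 238 (log2 fold change -0.99, adjusted p = 7.57e-08), as did Rabepk, named for its link to Rab9 (log2 fold change -0.92, adjusted p = 3.42e-06). Of 22 tested secretory and Golgi effectors 7 rose and 8 fell. Myo5a, the motor that carries Rab27a and Rab11 vesicles, rose from 4459 ± 269.5 to 10969 ± 1885 (log2 fold change 1.28, adjusted p = 1.39e-07). Micall1 (log2 fold change 0.73, adjusted p = 1.47e-06) and Uso1 (log2 fold change 0.53, adjusted p = 1.06e-04), a Rab1 tether, rose less. The Rab27 effector Myrip fell from 158, 173, 227, 213 and 175 to 3.53, 2.27, 8.19 and 9.88 (log2 fold change -4.93, SE 0.326, adjusted p = 1.75e-08). Sytl3, a Rab27 effector too, fell from 506 ± 113 to 133 ± 18.5 (log2 fold change -1.91, adjusted p = 1.39e-07), and Mical1 from 4539 ± 340.1 to 1498 ± 58.9 (log2 fold change -1.60, adjusted p = 4.13e-10).

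Genes of Rab prenylation and membrane extraction gave 3 rises and 2 falls among 9, with 4 lower after the GC and length correction. Rabif rose (log2 fold change 0.54, adjusted p = 5.43e-04), as did Chm, the Rab escort protein REP1 (log2 fold change 0.73, adjusted p = 4.72e-05), though the Chm call was lost in that correction (adjusted p = 0.236). Rabggta, the alpha subunit of the prenylating enzyme, fell from 865 ± 59.8 to 515 ± 67.7 (log2 fold change -0.75, adjusted p = 1.58e-05). The kinases that phosphorylate Rabs went in opposite directions: Lrrk1 rose from 5481 ± 229.7 to 13865 ± 1369 (log2 fold change 1.33, SE 0.0776, adjusted p = 4.94e-09) and Lrrk2 fell from 5125 ± 855 to 3242 ± 494 (log2 fold change -0.66, SE 0.121, adjusted p = 2.98e-04). The phosphatase Ppm1h was not called (log2 fold change 0.16, adjusted p = 0.0756), but was called higher without replicate 3 of the cultured samples, which raised the count from 1 to 2.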

How the data were processed

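RNA of 5 samples before and 4 after culture was compared. The deposited table gives, for every gene, the authors' normalized count, a signal of 0 or more. Per the submitters' processing notes DESeq2 and GRCm38 were used, while the aligner, the counter, its strand setting and the annotation are not given in the sources used here. Each value was a whole multiple of what 1 read is worth (0.758 to 1.79 normalized counts, tolerance 1e-06, 100% of values), so reads were recovered from the deposited values. The 3782 rows without a symbol, with 9.11% ± 1.64 of reads before and 4.57% ± 0.663 after culture, were left out.

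Genes with a mean of at least 10 were tested with limma 3.58.1 (R 4.3.3, trended variance, two-sided) on log2(value + 1) with group as the only term and Benjamini-Hochberg adjustment over 18202 genes. Fold changes on this scale understate changes of low genes. The test was also run on simulated counts in which few genes changed and GC content had no effect. That run therefore does not measure the error in these data. GC content and length were available for 96.3% of tested genes and corrected per sample with mgcv 1.9.3. Other alternatives were edgeR 4.0.16 and DESeq2 1.42.0 on recovered reads, pseudocounts of 0.5 and 8, no filter, a minimum mean of 50, 3 other scalings, a replicate block, and leaving out each sample; a fit without both libraries numbered 4 was chosen after seeing the data. Python 3.11.15 with pandas 2.3.3 drew up the tables.

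Per-sample values are given for members changed at least 2-fold with a mean of at least 100 and for members with a known part in dendritic cell uptake or presentation; other members have group values or counts, with per-sample values added for a few. Regulators named are up to 3 per list and direction with the largest called change, no overlap and a mean of at least 100, apart from 1 gene that is not reported here. The members, steps and lists were chosen with earlier results of these data known. A planned comparison of Rab proteins was not made, since no protein sequence was used here.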

Additional observations from a re-analysis of the deposited data

Results flagged for a closer look

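In 3 of 104 groups of samples, 1 sample stood far from the others by Dixon's criterion, and chance alone flags about 1 in 20 groups. For Rab5c before culture, replicate 4 (4316 normalized counts) was the lowest, and its gap to the next sample was 0.878 of the group's range. The same library held the highest Rab7b value (5271) before culture, with a gap of 0.916 of the range. Rab27a was highest before culture in replicate 3 (1205), with a gap of 0.833 of the range.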

How the results depend on the processing

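Of the 22 rises and 16 falls among Rab genes, 17 and 7 kept their call and direction in all 22 alternatives with a test. A further 1 and 3 (Rab39b, and Rab15, Rab27b and Rab36) did so in those that tested them, since a minimum mean of 50 leaves them out. Without the GC and length correction the numbers were 20 and 9, with the same further 1 and 3. Counts over all Rab genes ranged from 21 to 25 higher and from 12 to 17 lower, and from 21 to 24 and 13 to 17 when 1 sample was left out. After the GC and length correction, single-gene estimates that changed sign were Rab1a (-0.014), Rab1b (0.14), Rab5c (0.014), Rab11a (-0.33), Rab28 (-0.53) and Rab34 (0.24). The same correction gave 1 lower gene in the cilium and other group, 0 in early endosomes, 1 in late endosomes, 2 among GAPs, 7 among GEFs and 4 among prenylation genes, and 2 higher among kinases and phosphatase. For the kinases and phosphatase, upper quartile scaling and the fit without both libraries numbered 4 also gave 2 higher. Early endosome genes that fell numbered 2 with quantile normalization, without both libraries numbered 4 and under the block by library number, and 1 to 2 when 1 sample was left out; genes of the kinase and phosphatase list that rose numbered 1 to 2 in those fits, the second being the phosphatase Ppm1h. Without a filter 1 gene of the cilium and other group was lower, and with a minimum mean of 50, which leaves fewer genes tested, 2 recycling genes were lower. Other scalings also added calls: Rab3d, Rab6b and Rab32 with upper quartile scaling, and Rab3d, Rab5c, Rab6b, Rab28 and Rab37 with quantile normalization. Rab25 was lost in both of these and, with Rab7, without a filter.

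Estimates near 0 of genes not called also changed sign, and the cause was not tested. Rab13 gave 0.0023 with upper quartile scaling, 0.17 with quantile normalization and 0.038 without both libraries numbered 4, and Rab33b gave 0.0082 with quantile normalization. Rab38 gave 0.015 with upper quartile scaling, 0.14 with quantile normalization, 0.011 under the block by library number and 0.017 without both libraries numbered 4. Leaving out 1 sample gave from -0.092 to 0.082 for Rab13, from -0.060 to 0.158 for Rab31, from -0.022 to 0.117 for Rab35 and from -0.096 to 0.087 for Rab38.

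Pairing by replicate number was not established, and the samples were treated as unpaired. Deviations of samples with the same title number correlated at 0.0807, 0.0796, -0.213 and -0.0403. Those with the same library number correlated at 0.0807, 0.247, 0.349 and 0.0447, all above 0 but with the lowest near 0. Each cultured sample correlated best with the starting sample of its own library number, which is a hint from the data and not from the design. With the title numbers as replicate block, 21 Rab genes were higher and 15 lower, and the calls of Rab7 (adjusted p = 0.0811) and Rab1b (adjusted p = 0.0732) were lost. The block by library number gave 24 higher and 17 lower, gaining Rab5c (adjusted p = 0.00502) and Rab3d (adjusted p = 0.00790) as lower and Rab6b (adjusted p = 0.00346) and Rab32 (adjusted p = 0.0309) as higher, and losing Rab25 (adjusted p = 0.0591). Over all genes the blocks called 11646 and 12836. Reads limit the genes under a mean of 10, where 3 reads are worth 2.27 to 5.37 normalized counts.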
